A study of Mus musculus with 4 samples.

Results

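The suppressor of cytokine signalling (SOCS) family was examined in mouse T-helper 17 (Th17) cells, the CD4 T cells named for interleukin 17. Its 8 genes, Socs1 to Socs7 and Cish, were taken by name from the 50600 genes of the files, and all 8 were found. The study sequenced RNA from primary cells of the C57BL/6NJ strain in 4 libraries of 1 group, numbered as biological replicates 1 to 4. The labels name 1 donor for all 4, give no sex or age, and link a differentiation protocol for CD4 T cells. The library names in the file headers add the marks Sorted and 72 hr. There was no second cell type, untreated culture or knockout, so levels were compared between genes within a library and between libraries. Each library has a biosample of its own, but the labels do not say whether these were separate animals or cultures. Within replicates 1 and 2, and within 3 and 4, the spread may be technical.

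SOCS proteins close a feedback loop on cytokine receptors. A cytokine brings Janus kinases (JAKs) on its receptor together, these phosphorylate STAT transcription factors, and the STATs switch on SOCS genes among others. Each SOCS protein binds phosphotyrosine through an SH2 domain and, through its SOCS box, recruits a ubiquitin ligase built on elongins B and C and cullin 5. SOCS1 and SOCS3 also hold a short region that blocks JAK activity directly. In T cells SOCS3 acts on gp130, the shared chain of the interleukin 6 receptor, and CIS, the product of Cish, is a classic product of interleukin 2 and STAT5 signalling.

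Library depth ran from 9382661 counts in replicate 3 to 34542693 in replicate 1, a 3.68-fold range. The cells carried the markers of their label, with all 6 Th17 and all 7 T-cell markers at 1 TPM or more in every library. TPM is the count per base of exon, scaled to a fixed total per library. Markers of B cells, macrophages and monocytes, dendritic cells, natural killer cells, neutrophils, and erythroid cells and platelets summed to at most 2.70 TPM per list in any library. Of the CD8 T-cell genes, Cd8b1 passed 1 TPM in every library and Cd8a was below it in every library, and both summed to at most 15.4 TPM. The defining genes Ms4a1 (B cells), Ncr1 and Klrb1c (natural killer cells) and S100a8 and S100a9 (neutrophils) had no count. Xist, the noncoding RNA of the inactive X chromosome, had 177 and 193 TPM in replicates 1 and 2 but 2.15 and 0.598 TPM in replicates 3 and 4. The Y-linked Ddx3y had 0.165, 0.133, 59.7 and 55.2 TPM in replicates 1 to 4, so the libraries do not share 1 sex although they share 1 donor label.

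Start-site sequences are shown for the 3 genes on which the results turn. Cish and Socs1 supplied most of the family's transcripts, and Socs3 varied most between libraries. Capitals mark TTCNNNGAA, the palindrome that STAT proteins are known to bind. The windows come from RefSeq, build GRCm38.p6, where 4 of the 8 members had an entry, and each is printed 5′ to 3′ on the strand of its gene. The Socs1 window lies at chr16:10785537-10785786 on the minus strand, the Socs3 window at chr11:117969367-117969616 on the minus strand and the Cish window at chr9:107296409-107296688 on the plus strand. The RefSeq starts of Cish and Socs3 lie inside the GENCODE spans of these genes, as do both of their windows. Each window holds the 250 bases before the RefSeq start, and that of Cish continues for 30 bases after it.
Cish: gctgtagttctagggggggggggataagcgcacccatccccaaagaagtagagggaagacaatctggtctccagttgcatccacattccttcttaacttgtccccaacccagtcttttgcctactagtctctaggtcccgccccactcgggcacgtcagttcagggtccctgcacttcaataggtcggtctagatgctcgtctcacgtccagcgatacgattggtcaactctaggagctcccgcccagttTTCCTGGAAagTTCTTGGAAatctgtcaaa
Socs1: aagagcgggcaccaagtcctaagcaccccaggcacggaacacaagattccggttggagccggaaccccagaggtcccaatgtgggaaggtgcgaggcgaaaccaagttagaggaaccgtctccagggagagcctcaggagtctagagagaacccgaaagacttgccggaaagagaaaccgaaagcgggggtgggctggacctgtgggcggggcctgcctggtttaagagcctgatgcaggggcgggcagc
Socs3: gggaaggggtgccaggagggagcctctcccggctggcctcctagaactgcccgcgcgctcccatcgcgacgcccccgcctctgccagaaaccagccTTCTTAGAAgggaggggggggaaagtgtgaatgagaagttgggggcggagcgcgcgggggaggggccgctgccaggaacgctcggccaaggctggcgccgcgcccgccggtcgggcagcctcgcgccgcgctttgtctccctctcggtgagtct
The full windows searched ran from 250 bases before to 50 bases after the start. The palindrome reads the same on both strands, so 1 search covers both. Cish held 2 copies, beginning at bases 1 and 12 from the RefSeq start, and Socs3 held 1 copy beginning at base -154. Socs1 and Socs4 held none. Among all 32851 windows of this length, 8.30% held at least 1 copy and 0.457% held at least 2. These matches describe letters in a window and are not evidence of binding, which was not measured.

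All 8 SOCS genes were expressed, with at least 1 TPM in every library, a level that 47.6% of the 21764 protein-coding genes reached. By the exonic length in the files, Socs1 and Cish had the highest levels. On that scale the mean levels spanned 35.4-fold, between 277 ± 20.3 TPM for Socs1 and 7.83 ± 0.513 TPM for Socs5 (SD, n = 4). The span was 68.9-fold by principal transcript length and 93.3-fold by coding length, in both cases with Cish highest and Socs5 lowest. The median over the family was 32.3 ± 1.67 TPM, beside a median of 31.97 TPM over protein-coding genes with at least 1 TPM in every library. These are bulk values, in which fewer cells with a transcript and less of it per cell cannot be told apart.

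Socs1 encodes a broad inhibitor, a direct blocker of JAK kinases. It had 276, 282, 251 and 300.0 TPM in replicates 1 to 4, from 3535, 2492, 872 and 3208 counts. Replicate 4 was the highest and replicate 3 the lowest. Its Poisson interval (95%, counting error only) was 234 to 268 TPM in replicate 3 and 290 to 311 TPM in replicate 4. These libraries were picked as the extremes. The spread of Socs1 over all 4 did not pass the test across all genes tested (edgeR, unadjusted p = 0.324, adjusted p = 0.991). Socs1 (ENSMUSG00000038037.4) lies on chromosome 16 from 10783808 to 10785536 in mm10 and ranked 598th of all protein-coding genes by mean TPM.

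Cish encodes CIS, which is known to dampen signalling from the interleukin 2 receptor and the T-cell receptor. It had 241, 238, 233 and 247 TPM in replicates 1 to 4, and it was the most evenly expressed member. Its coefficient of variation after TMM scaling was 1.66%, and only 2.27% of the 12156 genes tested for spread had a lower one. It took 45417 counts over the 4 libraries, more than all other members together by counts. Cish (ENSMUSG00000032578.7) lies on chromosome 9 from 107296026 to 107302784 and ranked 699th. Of its counted exon bases, 740 lie opposite exons of the genes Gm17040 and Gm17041. The authors counted by strand, and Gm17040 had 92, 51, 9 and 63 counts in replicates 1 to 4, beside 16233, 11043, 4258 and 13883 for Cish.

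Socs3, the inhibitor that acts on gp130 and thereby on interleukin 6 and STAT3, came next by exonic length. Its level was nearly identical in 3 libraries and higher in the fourth, with 44.9, 45.3 and 44.4 TPM in replicates 1 to 3 and 66.1 TPM in replicate 4. The counts behind these were 1363, 949, 366 and 1676. Replicate 4 was 1.47 times the mean of the other libraries, which was 44.9 ± 0.452 TPM (SD, n = 3). The Poisson interval (95%, counting error only) of Socs3 was 63.0 to 69.4 TPM in replicate 4. It lay above the 40.0 to 49.2 TPM of replicate 3, the widest of the others. Replicate 4 was picked as the extreme. The spread of Socs3 over all 4 libraries did not pass the test across all genes tested (edgeR, unadjusted p = 0.0181, adjusted p = 0.875). Socs3 (ENSMUSG00000053113.3) lies on chromosome 11 from 117966079 to 117970047.

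By exonic length Socs4, Socs7 and Socs2 formed a middle tier within a narrow range. Socs4, linked to the epidermal growth factor receptor, had 34.4, 32.4, 33.7 and 30.8 TPM in replicates 1 to 4. Socs7, linked to insulin receptor signalling, had 31.4, 31.6, 34.3 and 29.3 TPM. The values of these 2 genes overlapped, and their order was not the same in every library. Socs2, best known as the brake on growth hormone receptor signalling, had 26.1, 28.8, 27.9 and 27.5 TPM. On this scale every Socs2 value lay below every Socs7 value. Socs4 (ENSMUSG00000048379.8) lies on chromosome 14 from 47276931 to 47296098, Socs7 (ENSMUSG00000038485.5) on chromosome 11 from 97362551 to 97398542 and Socs2 (ENSMUSG00000020027.18) on chromosome 10 from 95385362 to 95417180.

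Socs6 and Socs5 were the lowest members. Socs6, which binds receptor tyrosine kinases such as KIT, had 9.55, 9.62, 9.47 and 8.50 TPM in replicates 1 to 4. Socs5, linked to interleukin 4 and epidermal growth factor receptor signalling, had 7.79, 7.36, 8.55 and 7.61 TPM. The highest Socs5 value, in replicate 3, lay just above the lowest Socs6 value, in replicate 4. The Poisson interval of Socs5 in replicate 3 ran from 7.01 to 10.3 TPM, from 107 counts. Socs6 (ENSMUSG00000056153.14) lies on chromosome 18, and Socs5 (ENSMUSG00000037104.8) on chromosome 17 from 87107679 to 87137583.

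**Figure D1:**
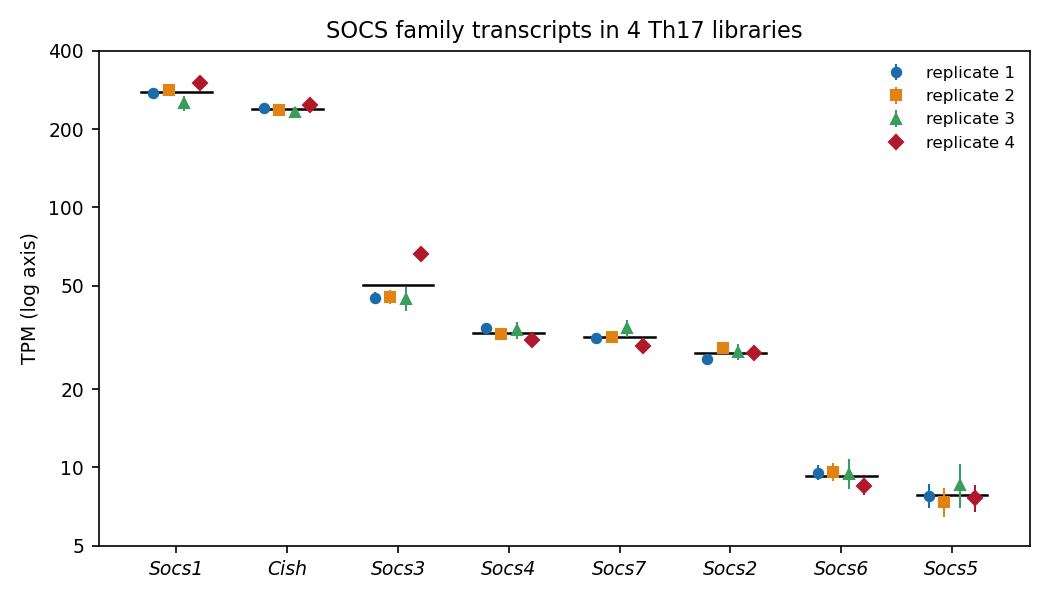
TPM (log axis) of each SOCS gene in the 4 Th17 libraries, ordered by mean; points are libraries with 95% Poisson intervals and black lines are means over 4 libraries. Socs1 and Cish lie between 233 and 300.0 TPM, and the replicate 4 point of Socs3 stands above its other 3.

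Neighbours in this order were compared within each library, on the log2(TPM + 1) scale. Socs1 exceeded Cish by 0.21 ± 0.0755 (SD, n = 4) and Cish exceeded Socs3 by 2.25 ± 0.246. Socs3 exceeded Socs4 by 0.58 ± 0.336, and Socs4 exceeded Socs7 by only 0.052 ± 0.0644, positive in 3 of 4 libraries. Socs7 exceeded Socs2 by 0.19 ± 0.0975, Socs2 exceeded Socs6 by 1.47 ± 0.0920 and Socs6 exceeded Socs5 by 0.22 ± 0.102. The 6 pairs other than Socs4 and Socs7 were positive in 4 of 4 libraries. For them the exact sign-flip permutation test (two-sided) gave p = 0.13, the smallest that 4 libraries allow, and 0.146 after Benjamini-Hochberg adjustment over 7 pairs. For Socs4 and Socs7 the exact p was 0.25 before and after adjustment. No pair could therefore reach 0.05. The order came from the mean TPM of these same libraries by exonic length, so the direction of each mean difference was largely given by the ordering. The p-values are thus no support for this order.

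The order of Socs1 and Cish, and the place of Socs2, depended on the length that the counts were divided by. The files give each gene the summed length of all its annotated exons, which for Socs2 is 9531 bases and for Cish 6419 bases. The principal transcripts of these genes in GENCODE release 21 are shorter, at 2222 and 2850 bases, so 23.3% of the counted Socs2 bases and 44.4% of the counted Cish bases belong to them. For Socs1 the counted exons are 1220 bases, all inside a principal transcript of 2908 bases in that later release. TPM was recomputed for all genes with the principal transcript length where that is shorter. Socs1 then had 191 ± 14.05 TPM and Cish 371 ± 9.28 TPM (SD, n = 4). Cish exceeded Socs1 in every library. Socs2 came next at 81.3 ± 3.33 TPM, above Socs3 at 39.1 ± 8.32 TPM. By coding length the same 4 genes stood at 170 ± 12.4 TPM for Socs1, 639 ± 15.3 TPM for Cish, 142 ± 6.02 TPM for Socs2 and 68.9 ± 14.6 TPM for Socs3. Which transcripts of Cish and Socs2 these cells made cannot be read from counts per gene, so the place of Cish against Socs1, and that of Socs2, is uncertain. Socs6 and Socs5 were the lowest members by each of the 3 lengths.

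**Figure D2:**
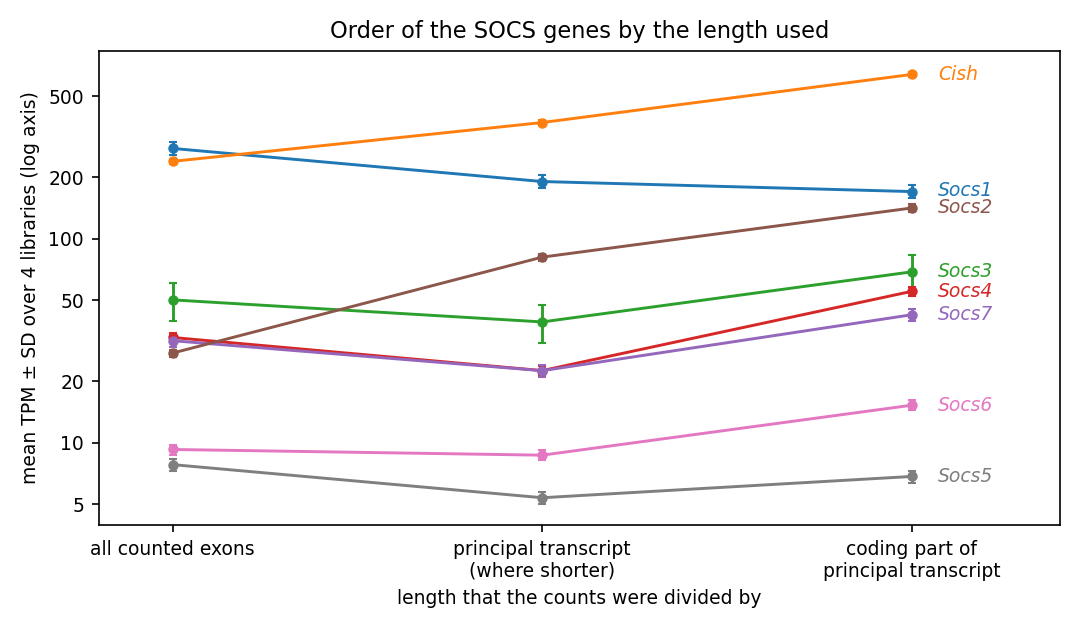
Mean TPM ± SD over 4 libraries (log axis) for each SOCS gene when counts are divided by 3 different lengths (horizontal axis). The Socs1 and Cish lines cross, and Socs2 climbs above Socs3, while Socs6 and Socs5 stay lowest.

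Across libraries the combined share of Socs1 and Cish in the family changed little, while the Socs3 share was highest in replicate 4. The 8 members summed to 671, 675, 642 and 717 TPM in replicates 1 to 4. Socs1 supplied 41.0 ± 1.31% and Cish 35.4 ± 0.808% of that sum (SD, n = 4). Both together ran from 75.3% in replicate 3 to 77.0% in replicate 1. By CPM, the count scaled to a fixed library total with no correction for length, both made up 65.8 ± 0.911%, of which Cish alone was 53.9 ± 0.410%. The Socs3 share was 6.69%, 6.72%, 6.92% and 9.23% in replicates 1 to 4. The TPM ratio of Socs3 to Socs1 was 0.163, 0.161, 0.177 and 0.220 in the same order, so Socs3 was also highest in replicate 4 relative to another member of its own library.

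The spread between libraries was tested with edgeR's quasi-dispersion test for the 12156 genes that passed a filter on low counts. It asks whether a gene varied more than genes of its abundance usually do. The filter can leave out a gene that is near 0 in some libraries. With a mean count of at least 50 as the filter instead, 5 of 10643 genes passed, or 0.047%, and no member. These were Xist, Ddx3y, Eif2s3y, Kdm5d and Uty. None of the 8 members passed an adjusted p of 0.05. Over all 12156 genes tested, 1 gene (Xist) passed, or 0.00823%, and 596 genes, or 4.9%, had an unadjusted p under 0.05. Socs3 was the only member among those 596, at an unadjusted p of 0.0181 and an adjusted p of 0.875 (edgeR). It ranked 250th of the 12156 genes. Its coefficient of variation was 20.5%, against 7.91% for the median gene tested, and the other 7 members lay below that median, between 1.66% and 7.31%. DESeq2 marked no member as a dispersion outlier either, among 111 of 21299 genes so marked, or 0.521%. With shares this small, no call among 8 members says little about them. Without the filter on low counts the edgeR test called 126 genes, or 0.592%, and again no member, and the adjusted p of Socs3 was then 0.247 (edgeR). Without replicate 4 the Socs3 ratio to the trend fell to 0.0161, against 9.58 with it, and the adjusted p was 0.998 (edgeR). Socs3 was nearly identical in replicates 1 to 3, so this fall was given by those values and adds no support.

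**Figure D3:**
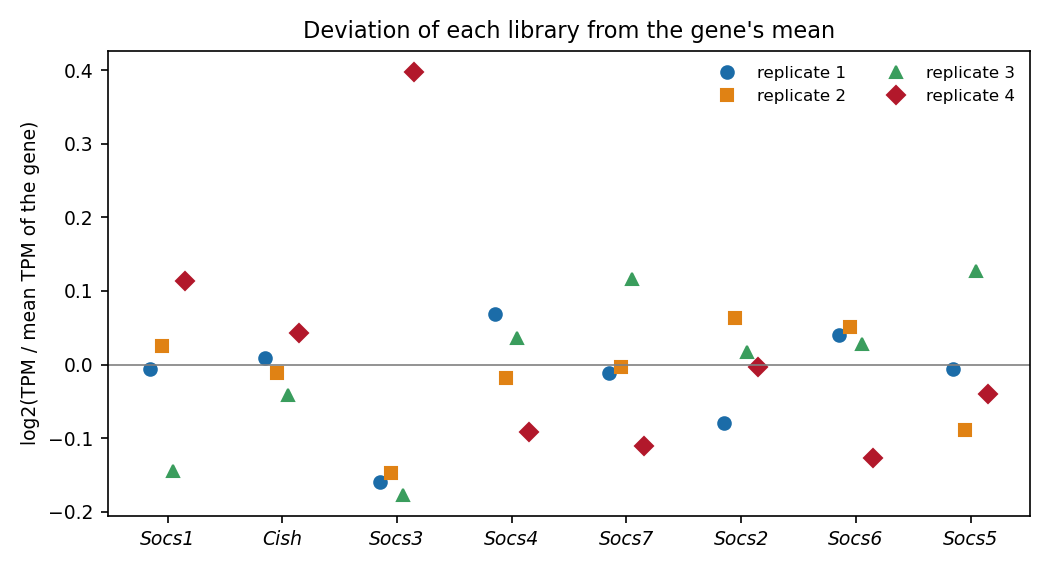
log2 ratio of the TPM in each library to the gene's mean TPM, for the 8 SOCS genes; symbols are the 4 replicates. Socs3 in replicate 4 is the point farthest from 0, and Socs4, Socs6 and Socs7 are lowest in that same library.

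Members differed in where replicate 4 lay, although the family sum was highest there. Replicate 4 was the highest library for 3 members, Socs1, Socs3 and Cish, and the lowest for 3 others, Socs4, Socs6 and Socs7. Of all genes tested for spread, 37.5% were highest in replicate 4, so 3 of 8 members is near that background. Among the 91 genes of the JAK and STAT pathway lists that were tested, 55 were highest in replicate 4. The lists and members were chosen with earlier results of these data known, and why this library stood apart for Socs3 was not tested.

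For each member the 3 protein-coding genes with the nearest pattern over the 4 libraries were sought among 10735 others with a mean of at least 1 CPM. The measure was the root mean square distance between log2(CPM + 1) values centred on each gene's mean. For Socs3 these were Slc44a5, the chemokine receptor gene Cxcr4 and Tmie, at 0.0176, 0.0184 and 0.0243. Slc44a5 had 0.840, 0.845, 0.853 and 1.75 CPM in replicates 1 to 4, where the added 1 weighs heavily on the measure. Cxcr4 had 33.2, 34.6, 32.6 and 50.2 CPM in replicates 1 to 4, beside 39.5, 40.1, 39.0 and 58.5 CPM for Socs3. Only 16 genes lay within 0.05 of Socs3. For the flatter members such likeness was common, with between 764 genes for Socs2 and 2008 genes for Cish within that distance. The nearest genes were Asb8, Npepps and Arl14ep for Socs1, Tinf2, Helz and Rev3l for Cish, and Fam199x, Flcn and Arid3b for Socs2. They were Jrkl, Grpel1 and Emc8 for Socs4, Tsc22d2 and Ints13 among those for Socs5, Rbbp4, Psmg2 and Suv39h1 for Socs6, and Stxbp5, Kif11 and Pum2 for Socs7. With 4 libraries these are descriptions only.

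The genes around the family in its pathway were then set beside it, from lists described by counts and medians. None of the 91 genes in them that were tested for spread passed, beside 0.00823% of all genes tested. Each of the 4 JAK genes passed 1 TPM throughout. Jak3, the kinase of the common gamma chain, had 225 ± 13.3 TPM, Jak2 184 ± 7.61, Jak1 137 ± 3.32 and Tyk2 43.5 ± 4.45 TPM (SD, n = 4). By exonic length Socs1 and Cish, at 277 and 240 TPM, had higher means than each of these kinases. The STAT genes described here also passed 1 TPM throughout, with Stat3, the factor downstream of interleukins 6, 21 and 23, at 210 ± 13.5 TPM. Stat6, Stat5b and Stat5a had 190 ± 8.88, 184 ± 9.25 and 119 ± 5.73 TPM, above Stat4 at 33.4 ± 10.4 and Stat2 at 25.3 ± 7.38 TPM.

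Interleukin 2 receptor chains led the receptors. Of 22 cytokine receptor chains, 19 passed 1 TPM throughout, and the 4 highest were Il2ra (1539 ± 63.5 TPM), Il2rb (922 ± 18.5 TPM), Il2rg (393 ± 30.4 TPM) and Il4ra (262 ± 5.63 TPM). The first 3 form the interleukin 2 receptor, which drives STAT5. Il6st, which encodes gp130, had 33.9, 31.1, 42.0 and 25.4 TPM in replicates 1 to 4, lowest in the library where Socs3 was highest. Il6st was added after its values were seen, and a relation between both genes was not tested. The spread of Il6st did not pass the test (edgeR, adjusted p = 0.679). The leukaemia inhibitory factor and oncostatin M receptor genes Lifr and Osmr, the 2 lowest of this list, held 1 and 8 counts over all libraries. Of 11 hormone and growth factor receptors, 3 passed 1 TPM in every library: Insr at 8.80, 8.73, 7.45 and 10.1 TPM in replicates 1 to 4, Igf1r at 8.18 ± 1.36 and Egfr at 2.72 ± 0.505 TPM. The erythropoietin receptor gene Epor had 0.911, 0.972, 0.882 and 1.95 TPM, and Csf3r had no count. The growth hormone receptor gene Ghr, whose product is the main known target of SOCS2, held 2 counts in all, beside 7645 for Socs2. Of 18 cytokines, 10 passed 1 TPM in every library, led by Lif (696 ± 95.1 TPM), Il21 (597 ± 21.5 TPM), Il2 (501 ± 83.8 TPM) and Il9 (425 ± 216 TPM). Il6 held 6 counts, Il5 held 1 and Il7 none.

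All 6 genes listed for the ligase that SOCS boxes recruit, or for related elongin complexes, were transcribed. Elob and Eloc, for elongins B and C, had 727 ± 16.8 and 116 ± 4.41 TPM (SD, n = 4). Cul5, for the cullin scaffold of SOCS complexes, had 32.9 ± 1.73 TPM and its RING partner Rnf7 160 ± 6.66 TPM. Cul2 and Rbx1, which serve related elongin complexes, had 103 ± 0.910 and 123 ± 5.10 TPM. Cul5 was therefore the lowest of the 6 and lay at the level of Socs4 and Socs7. Of 26 other SOCS-box genes, 13 passed 1 TPM in every library and 13 were below it in every library. Wsb1 (109 ± 9.01 TPM), Spsb3 (70.6 ± 3.18 TPM), Wsb2 (41.9 ± 1.58 TPM) and Asb8 (35.2 ± 2.66 TPM) were the highest, and 7 genes had no count, Asb17 and Asb18 among them. None of the 26 reached the level of Socs1 or Cish.

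Inhibitors of other kinds were also expressed, with 10 of 11 at 1 TPM or more in every library. The phosphatase genes Ptpn6, Ptpn1 and Ptprc had 370 ± 15.8, 235 ± 3.69 and 188 ± 4.24 TPM (SD, n = 4), and Ptpn2 had 97.6 ± 4.61 TPM. Pias3, which encodes an inhibitor of STAT3, had 14.2, 13.7, 13.3 and 14.9 TPM in replicates 1 to 4. Usp18, a brake on interferon receptors, was the lowest, at 1.43, 2.23, 0.755 and 7.03 TPM in replicates 1 to 4. Its spread did not pass either (edgeR, adjusted p = 0.583).

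Known targets of STAT3 and STAT5, the factors most tied to Socs3 and Cish, were expressed throughout. The 8 STAT3 targets had a median of 301 ± 13.3 TPM, led by Junb (1286 ± 133 TPM), Il21, Batf (389 ± 24.0 TPM) and Myc (348 ± 15.2 TPM), and their lowest were Il23r and Bcl3 at 80.2 ± 5.95 and 77.7 ± 5.82 TPM. The 8 STAT5 targets had a median of 219 ± 20.7 TPM, led by Il2ra, Lif, Ccnd2 (277 ± 16.9 TPM) and Pim1 (255 ± 20.8 TPM), with Osm and Bcl2 lowest at 106 ± 4.76 and 65.3 ± 11.6 TPM. Every gene of both lists passed 1 TPM in every library. For comparison, the median mean level of all protein-coding genes was 0.818 TPM. Over protein-coding genes with at least 1 TPM in every library it was 31.97 TPM. The target lists share Pim1, and Il21, Il23r, Il2ra, Lif and Osm also stand in the receptor or cytokine lists. The lists are therefore not separate from each other, and their medians are not tests.

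**Figure D4:**
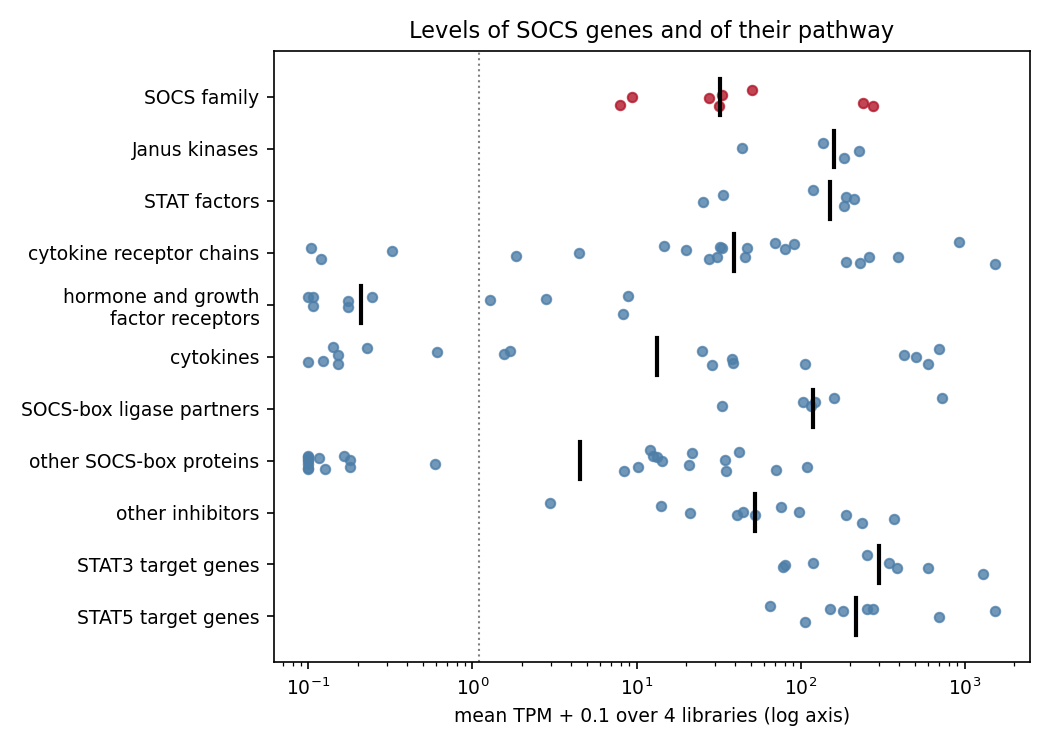
Mean TPM over 4 libraries, plotted as TPM + 0.1 on a log axis, for the SOCS family (top, red) and for each pathway list (blue); points are genes, black bars medians of the genes shown and the dotted line 1 TPM. All 8 SOCS genes lie right of the line, while the hormone and growth factor receptors, the cytokines and the other SOCS-box proteins reach down to 0 TPM.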

How the data were processed

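RNA was measured by sequencing in 4 Th17 libraries. The authors' deposited files hold raw counts of read pairs per gene. Per the file headers featureCounts 1.4.6-p4 assigned the pairs to genes over the exons in GENCODE mouse release 13, with pairs counted once, both mates aligned and strand option 2, and reads mapping to several places were left out. The headers' input name points to STAR, whose version these sources do not name. The build is mm10 per the labels. Symbols for 50376 of 50600 identifiers came from GENCODE release 21.

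TPM and CPM were computed here from counts, with the exonic lengths in the files. The spread was fitted with edgeR 4.0.16 (intercept alone, TMM, filterByExpr, all genes that passed this filter, Benjamini-Hochberg) and checked on simulated data. DESeq2 1.42.0 was an alternative. Intervals are exact Poisson (95%). For a count of 0 a limit of 3 counts was set apart from these intervals, which is 0.0868 to 0.320 CPM. The members, lists and tests were chosen with earlier results of these data known. Genes named from the lists are the JAK, STAT and ligase genes, the 4 highest and 2 lowest of each other list, and the 3 genes nearest each member; Il6st, Ghr, Il6, Gm17040, Gm17041, Xist, Ddx3y and single cell markers were added after their values were seen. Coding lengths from a protein table were replaced by those of GENCODE release 21, since no such table was used here. Some genes and 1 list that this rule covers are not reported here.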

Additional observations from a re-analysis of the deposited data

Results flagged for a closer look

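In 3 of the 69 quantities looked at (the 8 members, family sums and shares, and named pathway genes), 1 library lay far from the other 3. The gap to the nearest library, as a share of the whole range, passed the 95% critical value of Dixon's test for 4 samples, and chance alone gives about 1 such case in 20. For Socs3 that share was 0.959, from 66.1 TPM in replicate 4 against 44.4 to 45.3 TPM in replicates 1 to 3. For Socs6 it was 0.867, with replicate 4 low at 8.50 TPM against 9.47 to 9.62 TPM. For Epor it was 0.916, with 1.95 TPM in replicate 4 against 0.882 to 0.972 TPM, from 72 counts in all. At the rate given above, 3 cases among 69 quantities are no more than chance alone gives. The quantities also overlap, since the family sums and shares are made from the members. All 3 involved replicate 4, and the cause was not tested.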

How the results depend on the processing

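Without a length correction (CPM), 4 neighbour differences turned round, to -2.18 for Socs1 minus Cish, -0.65 for Socs3 minus Socs4, -0.027 for Socs4 minus Socs7 and -0.19 for Socs7 minus Socs2. With principal transcript lengths, chosen after seeing the data, Socs1 minus Cish was -0.96 and Socs7 minus Socs2 -1.80, and with coding lengths they were -1.90 and -1.72. The Socs1 and Cish share was 65.8% by CPM and 71.0% by coding length. Genes called for spread numbered 126 (0.592%) with no filter, 5 (0.047%) with a mean count of at least 50 and 111 (0.521%) as DESeq2 outliers. They numbered between 1 and 20 when 1 library was left out, with 20 (0.165%) reached without replicate 4. No setting called a member. Leaving out 1 library turned no neighbour difference round; the Socs3 mean ran from 44.9 (without replicate 4) to 52.1 TPM. Socs5, at 107 counts in replicate 3, was the member most limited by depth. The planned protein lengths were not run.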
